A study of Mus musculus with 5 samples.

Results

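Astrocytes and Bergmann glia are described here by 34 genes, listed by name for their known expression in these cells, out of 55421 genes in the deposited count table. Of the 34, 33 passed the filter on low counts. Npy2r, a receptor of neuropeptide Y, did not pass, with 6 counts in each control and 2, 6 and 2 in the mutants. Total RNA of whole mouse cerebellum, taken at postnatal day 14, was sequenced. The 3 Yy1 cKO libraries carry Pcp2 Cre/+ with Yy1 fx/fx, and the 2 control libraries, from littermates, carry Pcp2 Cre/+ with Yy1 fx/+. Both groups therefore hold the Cre allele, and the controls already have 1 floxed copy of Yy1. The Pcp2 promoter drives the Cre in Purkinje cells, so the glia studied here are not the cells in which Cre is driven. The labels give mixed sex, without tying replicates to animals or litters, and a p-value here speaks only for the variation among these 5 samples, which may be technical.

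Bergmann glia are the radial astrocytes of the cerebellar cortex. Their cell bodies lie beside those of Purkinje cells, and their fibres cross the molecular layer, guide granule cells inward and wrap the synapses on Purkinje cell dendrites. As they and the other astrocytes mature they switch off genes of radial progenitors, such as Fabp7 and Tnc, and build up the machinery for clearing glutamate and potassium, for gap junction coupling and for metabolic support. Many of these genes are not exclusive to astrocytes: Ptprz1 is also strong in oligodendrocyte precursors, Apoe in microglia, Sox2 in progenitors of several kinds and S100b in oligodendrocytes.

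Total counts were 17424860 to 20305705 per library. Compared gene by gene, the 2 controls differed by a chi-square of 7.72 per gene, Yy1 cKO 1 and 2 by 3.51, and Yy1 cKO 3 from those by 16.6 and 16.7. Yy1 cKO 3 thus stood apart within its group, and values without it are given beside those it moves most. The Y-linked transcript Ddx3y was present in control 1 and Yy1 cKO 3 alone (1175 and 1471 counts), so the departure of Yy1 cKO 3 cannot be told apart from sex within the mutant group. Yy1 itself, in whole tissue, stood at 74.1 ± 0.60 CPM (SD, n = 2) without and 77.0 ± 4.3 CPM (SD, n = 3) with the deletion (edgeR quasi-likelihood test, adjusted p = 0.61), which does not check a deletion limited to 1 cell type.

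Several genes of mature glia rose in the Yy1 cKO cerebella, while most genes of either kind did not pass the test. Across the 33 tested genes 10 rose and 3 fell (adjusted p under 0.05 by edgeR's quasi-likelihood test, with Benjamini-Hochberg adjustment over all 20388 genes tested), against 10.7% of all genes tested that rose and 12.6% that fell. Those that rose were Slc1a3, Slc1a2, Atp1b2, Sept4, Ptprz1, Acsbg1, S100b, Clu, Itih3 and Ntsr2, and those that fell were Aqp4, Fabp7 and Socs3. The median log2 fold change of the 33 was 0.38, against 0.00 over all genes tested. In 21 of them every Yy1 cKO library lay above both controls and in 8 every one lay below, where 25.2% and 27.0% of all genes tested had such separate ranges. Without Yy1 cKO 3 the counts were 15 higher and 5 lower, against 14.9% and 15.6% of all genes tested. In whole tissue a change in the number of glial cells and a change in RNA per glial cell cannot be told apart.

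**Figure D1:**
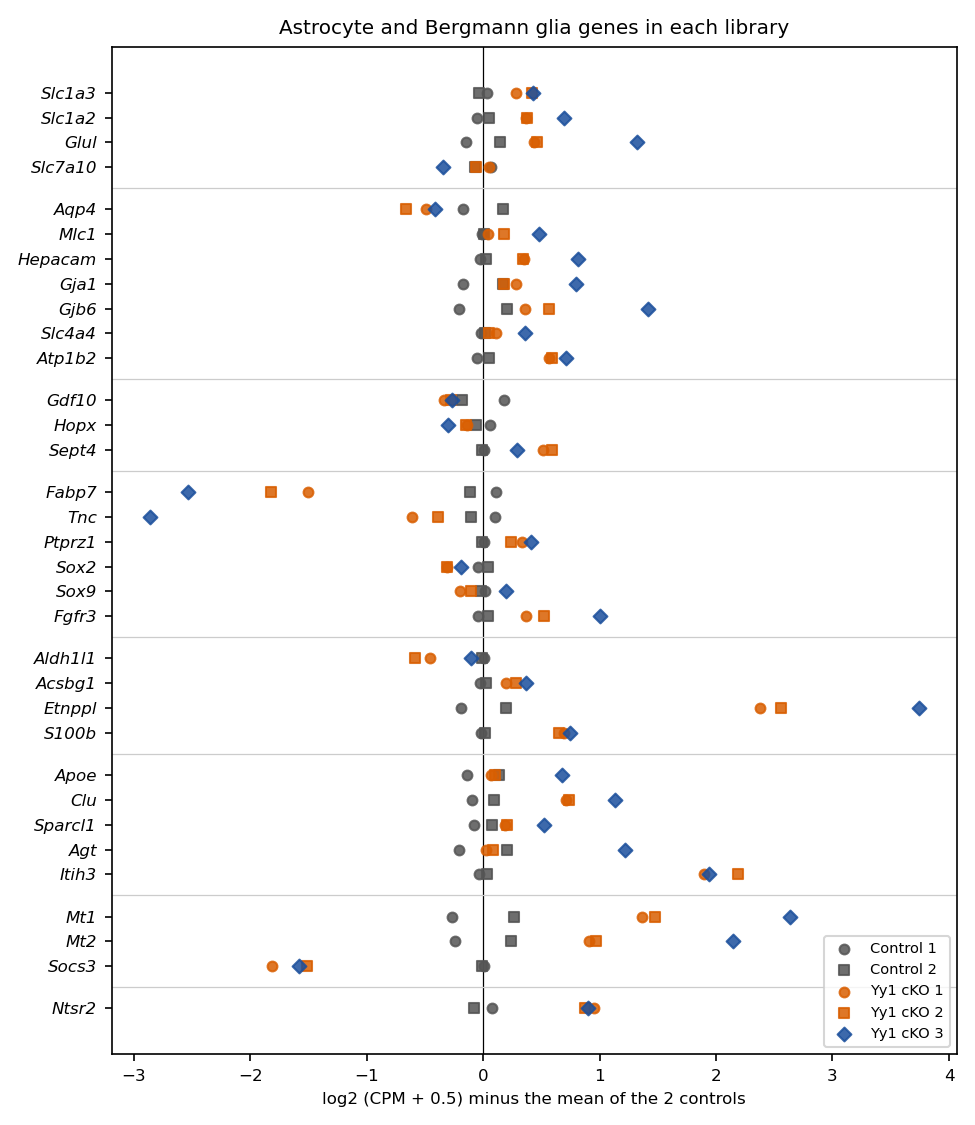
Each row is 1 of the 33 tested genes and each point 1 library, as log2 (CPM + 0.5) minus the mean of the 2 controls. Grey lines separate glutamate handling, membrane proteins, Bergmann glia, young glia, metabolic enzymes, secreted proteins, inducible genes and receptors. Etnppl, Itih3, Mt1 and Mt2 reach furthest right and Fabp7, Tnc and Socs3 furthest left, and for Etnppl, Mt1, Mt2 and Tnc the point of Yy1 cKO 3 lies well outside those of Yy1 cKO 1 and 2.

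The sequence just upstream of 4 of the genes is shown, 2 with a match to the motif below and 2 without. Their RefSeq start sites lie 0 to 43 bases from a GENCODE start, and the genes were picked for display after the matches were known. Each run is the 250 bases before the start site (RefSeq, GRCm38.p6), read 5′ to 3′ on the gene's strand, with matches to TTCNNNGAA, the core read by STAT factors, in capitals. The motif reads the same on both strands, so 1 search covers both.
Slc1a3, chr15:8710808-8711057, minus strand: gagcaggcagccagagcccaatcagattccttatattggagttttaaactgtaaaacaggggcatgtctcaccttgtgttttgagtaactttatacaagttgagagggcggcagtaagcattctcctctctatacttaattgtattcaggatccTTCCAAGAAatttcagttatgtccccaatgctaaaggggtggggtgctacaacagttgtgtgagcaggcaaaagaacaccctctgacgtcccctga
Acsbg1, chr9:54661886-54662135, minus strand: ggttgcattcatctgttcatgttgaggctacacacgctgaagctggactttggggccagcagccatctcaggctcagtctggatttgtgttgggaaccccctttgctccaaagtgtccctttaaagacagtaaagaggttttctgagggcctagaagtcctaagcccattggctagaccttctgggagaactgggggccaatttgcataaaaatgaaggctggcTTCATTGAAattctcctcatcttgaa
S100b, chr10:76253586-76253835, plus strand: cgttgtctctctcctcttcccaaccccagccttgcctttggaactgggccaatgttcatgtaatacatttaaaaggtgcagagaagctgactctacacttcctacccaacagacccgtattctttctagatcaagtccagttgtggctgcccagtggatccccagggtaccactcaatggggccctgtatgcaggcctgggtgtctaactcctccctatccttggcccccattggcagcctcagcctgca
Etnppl, chr3:130617198-130617447, plus strand: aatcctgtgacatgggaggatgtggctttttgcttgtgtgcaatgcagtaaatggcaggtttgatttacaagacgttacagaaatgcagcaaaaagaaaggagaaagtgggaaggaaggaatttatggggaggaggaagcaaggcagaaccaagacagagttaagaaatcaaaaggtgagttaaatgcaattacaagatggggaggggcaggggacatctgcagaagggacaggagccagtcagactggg

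Slc1a3 and Acsbg1 each hold 1 match, starting 96 and 26 bases before the start site, and S100b and Etnppl hold none. A RefSeq promoter was found for 29 genes of the set, and 5 of those had a match in this window (Acsbg1, Agt, Ntsr2, Slc1a3 and Socs3), and 7.18% of 27025 promoters did. For GCCATNTT, a core read by YY1, 0 of the 29 had a match on either strand, and 3.93% of all promoters did. With 29 promoters, 0 matches cannot be told from a share of 3.93%. These are matches of letters in a window of 250 bases, not binding sites, and bases after the start site were not searched. For Mlc1 and Sox2 the RefSeq start lies 454 and 410 bases from the nearest GENCODE start, further than the window is long.

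Both glutamate transporters of astrocytes rose, and the enzyme that turns the glutamate into glutamine lay above the controls in all mutants but was uneven among them. Slc1a3 (GLAST, chr15:8634124-8710764, GRCm38), the main transporter of Bergmann glia, stood at 873 and 833 CPM in control mice against 1040.1, 1144 and 1145 CPM in the mutants. All mutants lay above both controls, with a log2 fold change of 0.38 ± 0.071 (SE, adjusted p = 0.0043). Slc1a2 (GLT-1), the transporter that dominates in mature astrocytes elsewhere in the brain, stood at 1088 and 1172 against 1460, 1471 and 1824 CPM, a log2 fold change of 0.49 ± 0.10 (SE, adjusted p = 0.010). Per kb of exon the controls held 99.9 CPM of Slc1a3 and 86.0 CPM of Slc1a2, and Yy1 cKO held 130 and 121 CPM. Either call was lost with 1 control fewer: Slc1a2 had adjusted p = 0.11 without control 1 and 0.057 without control 2, and Slc1a3 had adjusted p = 0.073 without control 2.

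Glul, glutamine synthetase, had 397 and 489 CPM in control mice against 598, 609 and 1102 CPM in the mutants. The third mutant library was 1.83 times the mean of the other two, and with it the difference was not called (log2 fold change 0.80 ± 0.38, SE, adjusted p = 0.25). Without Yy1 cKO 3 Glul rose by 0.44 ± 0.098 on the log2 scale (SE, adjusted p = 0.017). Slc7a10 (Asc-1), a transporter of small neutral amino acids including D-serine, stayed within 24.2 to 32.5 CPM, with overlapping groups (adjusted p = 0.56). Of its exon bases 17.9% overlap Lrp3 on the opposite strand, as 13.9% of those of Fgfr3 and 11.05% of those of Aldh1l1 overlap other genes there.

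Membrane proteins of the astrocyte moved apart from each other: a subunit of the sodium pump rose, the water channel fell, and the gap junction proteins were high in Yy1 cKO 3. Atp1b2, the glial beta subunit of the sodium-potassium pump, stood at 575 and 620 CPM in control mice and at 886, 903 and 980.3 CPM in the mutants. It rose by 0.63 ± 0.072 on the log2 scale (SE, adjusted p = 2.7e-04). Aqp4, the water channel of astrocyte endfeet, had 454 and 579 CPM against 364, 324 and 386 CPM. Its groups did not overlap and it fell by 0.53 ± 0.11 (SE, adjusted p = 0.015), but the controls differed by more among themselves than the mutants did, and Aqp4 was no longer called once control 2 (log2 fold change -0.34, adjusted p = 0.088) or Yy1 cKO 3 (adjusted p = 0.11) was left out, or with the replicate block (adjusted p = 0.30).

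Mlc1 and Hepacam, partner proteins of the astrocyte membrane that underlie a childhood leukodystrophy, were not called, with adjusted p = 0.21 and 0.083. The log2 fold change of Mlc1 was 0.25 ± 0.12 (SE), and 0.11 ± 0.060 (SE, adjusted p = 0.17) without Yy1 cKO 3. Hepacam stood at 86.5 and 89.7 against 112, 112 and 155 CPM, and without Yy1 cKO 3 it rose by 0.35 ± 0.053 (SE, adjusted p = 9.7e-05). The connexin genes Gja1 (connexin 43) and Gjb6 (connexin 30), whose proteins couple astrocytes, had log2 fold changes of 0.44 ± 0.25 and 0.86 ± 0.44 (SE), with adjusted p = 0.31 and 0.28. Leaving out Yy1 cKO 3 gave 0.23 ± 0.15 and 0.46 ± 0.15 (SE), with adjusted p = 0.39 and 0.059, and without control 1 Gja1 was at 0.27 (adjusted p = 0.64). Gjb6 was at 22.9 and 30.5 CPM among the controls, 34.1 and 39.4 CPM in Yy1 cKO 1 and 2 and 71.4 CPM in Yy1 cKO 3. Slc4a4, a sodium bicarbonate cotransporter, lay between 636 and 648 CPM without the deletion and between 663 and 825 CPM with it (log2 fold change 0.18 ± 0.093, SE, adjusted p = 0.20, and 0.08 ± 0.052, SE, adjusted p = 0.28 without Yy1 cKO 3).

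Of the 3 genes chosen for Bergmann glia, 1 rose and the other 2 were lower without passing the test. Sept4, a septin of Bergmann glial processes, stood at 242 and 237 CPM against 343, 361 and 293 CPM and rose by 0.47 ± 0.087 (SE, adjusted p = 0.0042, 0.057 without control 2). Gdf10, a ligand of the TGF-beta family that marks Bergmann glia, stood at 228 and 178 against 159, 166 and 167 CPM. The separation was narrow, with a log2 fold change of -0.31 ± 0.096 (SE, adjusted p = 0.055), and 5 of the 13 alternatives called it lower. Its size rested on the controls: the log2 fold change was -0.12 (adjusted p = 0.39) without control 1 and -0.47 (adjusted p = 0.0070) without control 2, and without Yy1 cKO 3 the adjusted p was 0.26. Hopx, a homeodomain-only protein of radial glia, averaged 93.9 ± 5.3 CPM (SD, n = 2) in control mice against 82.1 ± 5.3 CPM (SD, n = 3), with adjusted p = 0.078, and 27.2% of its exon bases overlap an antisense gene.

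The 6 genes chosen for young glia and progenitors did not move together. Fabp7, the brain lipid-binding protein of radial glia, had 136 and 116 CPM in control mice, and all mutants lay far below, at 44.0, 35.3 and 21.3 CPM. It fell by 1.91 ± 0.34 on the log2 scale (SE, adjusted p = 0.034), and by 1.67 ± 0.13 (SE, adjusted p = 5.5e-04) without Yy1 cKO 3. The call was lost in 6 of the 13 alternatives, among them without control 1 (adjusted p = 0.13), without control 2 (adjusted p = 0.12) and without Yy1 cKO 2 (adjusted p = 0.099), while the log2 fold change stayed between -2.15 and -1.67 in all 13.

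Tnc, tenascin-C, a matrix protein made by radial and young Bergmann glia, had 93.8 and 81.1 CPM among the controls, 57.1 and 66.5 CPM in Yy1 cKO 1 and 2, and 11.6 CPM in Yy1 cKO 3. The library of that last value held 216 counts of Tnc, against 1135 to 1745 in the others. All mutants lay below the controls, yet Tnc was not called with all libraries (log2 fold change -0.96 ± 0.83, SE, adjusted p = 0.51). Without Yy1 cKO 3 it fell by 0.50 ± 0.087 (SE, adjusted p = 0.0015).

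Sox2 and Sox9, transcription factors of glial progenitors that astrocytes keep, were not called with all libraries, with adjusted p = 0.065 and 0.91. Sox2 stood at 23.6 and 25.2 against 19.6, 19.7 and 21.3 CPM, and without Yy1 cKO 3 it fell by 0.31 ± 0.093 (SE, adjusted p = 0.018). The receptor-type phosphatase Ptprz1 went the other way, from 323 and 321 CPM to 407, 380.3 and 429 CPM (log2 fold change 0.33 ± 0.067, SE, adjusted p = 0.0060). It was not called without control 1 (adjusted p = 0.064) or control 2 (adjusted p = 0.075). Fgfr3, a growth factor receptor of progenitors and astrocytes, had 44.7 and 47.7 against 59.9, 66.6 and 93.2 CPM (adjusted p = 0.10), and without Yy1 cKO 3 it rose by 0.45 ± 0.071 (SE, adjusted p = 1.3e-04).

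Among metabolic enzymes and calcium-binding proteins, S100b rose evenly across the mutants, and Etnppl had the largest fold but did not pass the test. S100b, a calcium-binding protein of maturing astrocytes, had 104 and 106 CPM in control mice against 169.9, 164 and 175 CPM in the mutants. It rose by 0.70 ± 0.056 (SE, adjusted p = 3.4e-05), and its call held in all 13 alternatives. Etnppl, the lyase that breaks down phosphoethanolamine and a late marker of astrocytes, had 55 and 72 counts among the controls but 397, 415 and 973 among the mutants. Scaled, it averaged 3.49 ± 0.75 CPM (SD, n = 2) against 31.6 ± 17.9 CPM (SD, n = 3), and the groups did not overlap.

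Etnppl was thus 9.08 times higher by the ratio of means, the largest fold among the 33, while its log2 fold change of 3.18 ± 0.69 (SE) had an adjusted p of 0.053. Without Yy1 cKO 3, the library that departed most, it rose by 2.61 ± 0.16 (SE, adjusted p = 4.7e-09), and 6 of the 13 alternatives called it. Acsbg1, an acyl-CoA synthetase, rose from 154 ± 4.0 to 188 ± 11.2 CPM (adjusted p = 0.0094), but was not called without control 1 (adjusted p = 0.12) or control 2 (adjusted p = 0.067). Aldh1l1, the folate enzyme used as a general astrocyte marker, had 63.6 and 62.8 CPM among the controls, 45.9 and 42.0 CPM in Yy1 cKO 1 and 2 and 58.7 CPM in Yy1 cKO 3. It was not called with all libraries (adjusted p = 0.096) and fell by 0.52 ± 0.067 (SE, adjusted p = 1.7e-05) without the third mutant.

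Secreted proteins all had positive log2 fold changes, and 2 of the 5 rose. Itih3, a heavy chain of the inter-alpha-trypsin inhibitor family that binds hyaluronan, stood at 14.8 and 15.6 CPM in control mice against 58.2, 71.0 and 59.8 CPM in the mutants. No mutant value came near a control value, and Itih3 rose by 2.05 ± 0.10 (SE, adjusted p = 2.5e-06), a call that held in all 13 alternatives. Clu, clusterin, an extracellular chaperone, had 101 and 116 against 178, 181 and 237 CPM and rose by 0.87 ± 0.15 (SE, adjusted p = 0.011, 0.063 without control 1).

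Sparcl1 (hevin), a matrix protein that astrocytes release at synapses, had the highest level of the set per kb of exon, at 298 CPM per kb in the controls and 369.8 in Yy1 cKO. It differed by 0.31 ± 0.11 on the log2 scale (SE, adjusted p = 0.079), and without Yy1 cKO 3 it rose by 0.19 ± 0.059 (SE, adjusted p = 0.021). Apoe, the main apolipoprotein of the brain, had 474 and 571 against 544, 559 and 831 CPM, and Agt, angiotensinogen, had 60.7 and 81.1 against 71.3, 74.6 and 164 CPM. In both, Yy1 cKO 1 and 2 lay within the range of the controls and the third mutant alone lay above it (adjusted p = 0.45 and 0.56 with all libraries, 0.54 and 0.89 without Yy1 cKO 3). Their log2 fold changes were 0.30 ± 0.24 and 0.54 ± 0.53 (SE), against 0.08 ± 0.083 and 0.04 ± 0.16 (SE) without that library and 0.17 and 0.35 without control 1.

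The 3 inducible genes split in direction. Socs3, the feedback inhibitor of cytokine signalling through STAT3, had 193 and 183 counts among the controls but 51, 60 and 58 among the mutants. The mutant libraries lay close together, and Socs3 fell from 10.3 ± 0.12 to 2.99 ± 0.38 CPM (SD), a log2 fold change of -1.78 ± 0.16 (SE, adjusted p = 6.1e-05) that was called in all 13 alternatives. The metallothionein genes Mt1 and Mt2, zinc-binding proteins induced by metals, glucocorticoids and stress, are neighbours on chromosome 8, 5514 bases apart. Mt1 had 38.1 and 55.3 CPM among the controls, 119 and 128 CPM in Yy1 cKO 1 and 2 and 289 CPM in Yy1 cKO 3. Mt2 followed the same order, with 57.1 and 80.1 CPM, then 127 and 133 CPM, then 300.5 CPM.

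For neither metallothionein did the groups overlap, but the edgeR test called neither (log2 fold changes of 1.94 ± 0.61 and 1.45 ± 0.58, SE, with adjusted p = 0.13 and 0.20). With Yy1 cKO 3 left out they were 1.41 ± 0.24 and 0.92 ± 0.22 (SE), with adjusted p = 0.055 and 0.095. DESeq2 called both higher (adjusted p = 0.0051 and 0.047), as did edgeR with the replicate number as a block (adjusted p = 3.9e-08 and 8.6e-04). That block in effect sets Yy1 cKO 3 aside, and the replicate numbers are not said to mark litters. The edgeR fit that left Yy1 cKO 3 out without a block called neither. The longest identical run between their transcripts is 20 bases, well below the read length of 150 bases. For Mt2, 73.5% of the exon bases overlap an antisense gene, and the strand setting of the counting is not given in the sources used here. Ntsr2, the neurotensin receptor of astrocytes, stood at 18.6 and 16.8 against 34.6, 33.0 and 33.4 CPM and rose by 0.93 ± 0.091 (SE, adjusted p = 1.1e-04), again in all 13 alternatives.

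**Figure D2:**
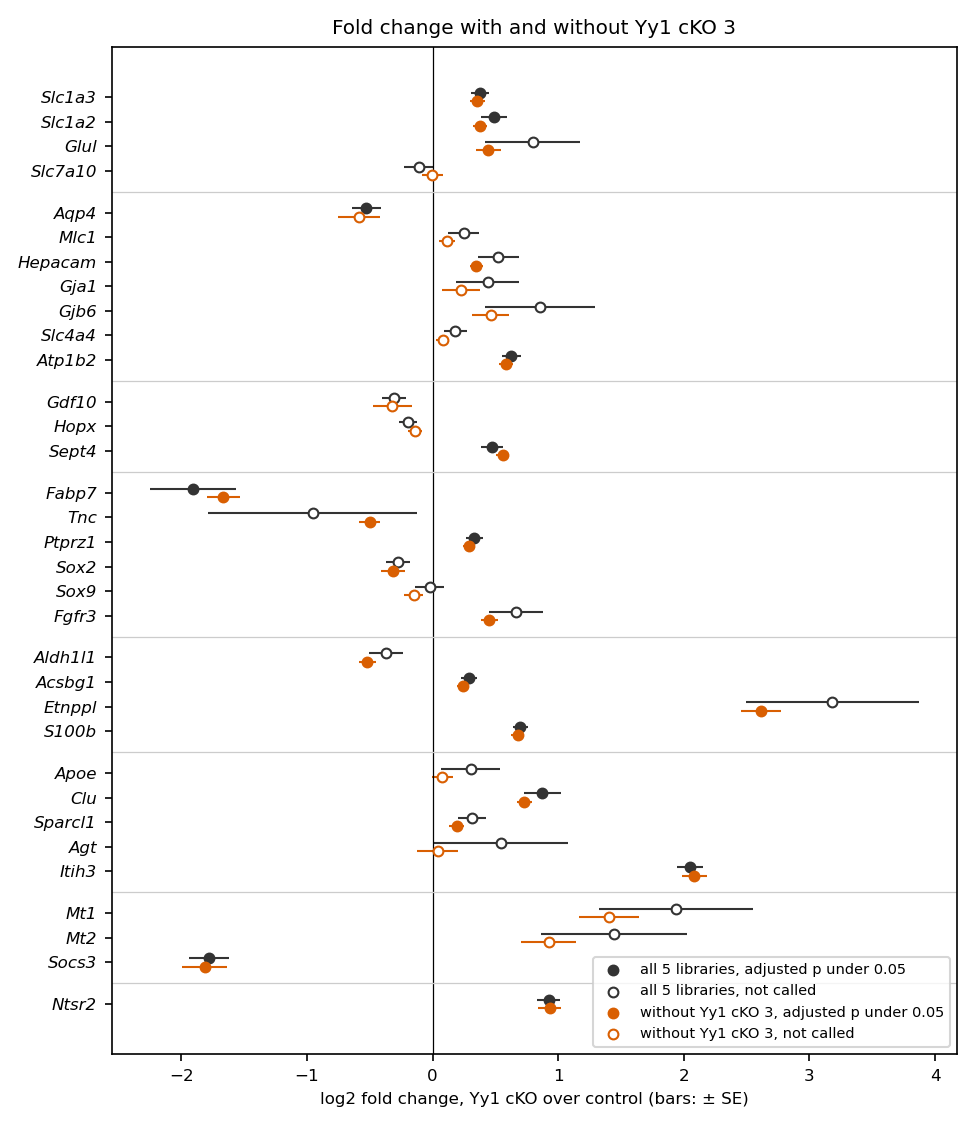
Log2 fold change of each tested gene (points) with its standard error (bars), from all 5 libraries in black and without Yy1 cKO 3 in orange, filled where the adjusted p is under 0.05. Itih3, S100b, Atp1b2, Ntsr2 and Socs3 barely move between the pair of fits, while the bars of Tnc, Etnppl, Mt1, Mt2, Glul and Agt are wide with all libraries and narrow without the third mutant.

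Young and mature genes were contrasted as 2 classes. Left out of both were 10 genes of the set: Slc1a3, Gdf10, Hopx, Sept4, Apoe, Clu, Mt1, Mt2, Socs3 and Npy2r. Of these Slc1a3, Sept4 and Clu rose and Socs3 fell. Of the 18 genes classed as mature 6 rose and 1 fell (Aqp4), with a median log2 fold change of 0.51, and 15 of them had positive values. Of the 6 classed as young 1 rose (Ptprz1) and 1 fell (Fabp7), with a median of -0.15, and 4 had negative values. Beside the 10.7% higher and 12.6% lower among all genes tested, the young counts are near that share. Without Yy1 cKO 3 the medians were 0.30 and -0.23, with 10 mature genes higher and 1 lower (Aldh1l1), and 2 young genes higher and 3 lower (Fabp7, Tnc and Sox2), where 14.9% of all genes tested were higher and 15.6% lower. By library, the median of the mature class relative to the controls was 0.32 and 0.31 in Yy1 cKO 1 and 2 and 0.73 in Yy1 cKO 3. That of the young class was -0.25 and -0.20 in Yy1 cKO 1 and 2 and 0.00 in Yy1 cKO 3. The difference between the classes was not tested, since genes of a class are not replicates, and the young class spans log2 fold changes from -1.91 to 0.66.

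**Figure D3:**
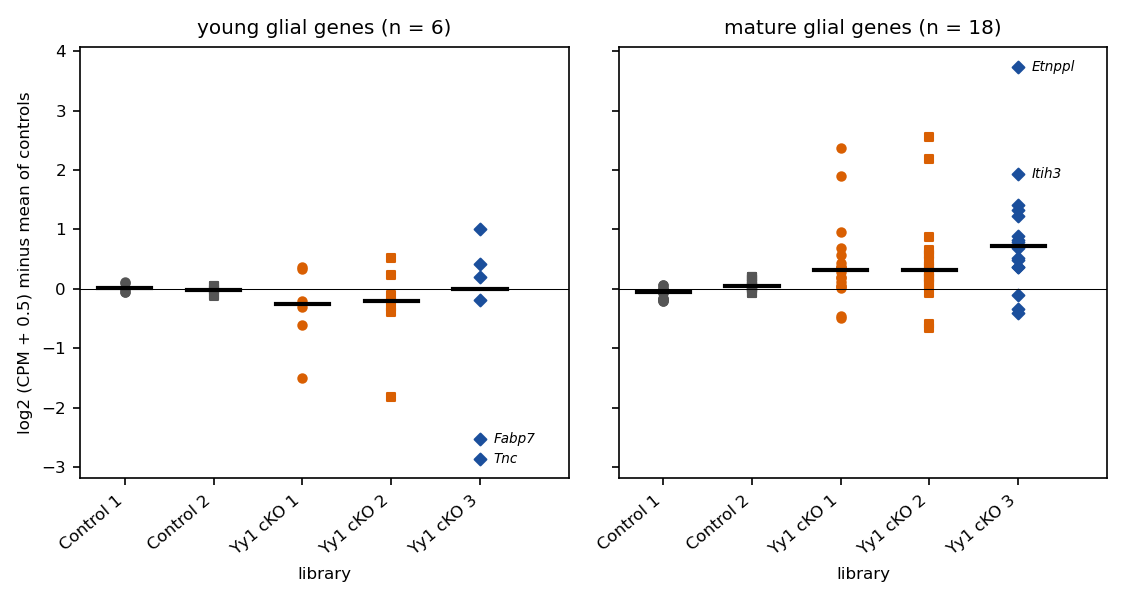
Each point is 1 gene in 1 library, as log2 (CPM + 0.5) minus the mean of the controls, for 6 young genes (left) and 18 mature genes (right). Black bars are medians, which in the mature class reach 0.73 in Yy1 cKO 3, while Fabp7 and Tnc are lowest in that library.

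Other genes of the 2 kinds, taken from lists that share no gene with the set, were counted in the same fit. Of 14 tested genes of young glia 8 fell and 2 rose, against 12.6% and 10.7% of all genes tested. The median log2 fold change of the 14 was -0.35. Without Yy1 cKO 3 there were 9 lower, 2 higher and a median of -0.44, against 15.6% lower and 14.9% higher among all genes tested. The 4 called with the smallest p were Ncan, a matrix proteoglycan (168.8 ± 10.1 to 55.7 ± 2.0 CPM, adjusted p = 5.7e-07), Nfib (816 ± 3.6 to 449 ± 25.0 CPM, adjusted p = 2.6e-05), Id3 (21.7 ± 1.7 to 9.84 ± 1.3 CPM, adjusted p = 2.1e-04) and Nfia (404 ± 10.7 to 305 ± 5.5 CPM, adjusted p = 7.7e-04). Neurons of the granule lineage also express Ncan, Nfia and Nfib. Hes1, a Notch effector of radial glia, rose from 2.59 ± 0.43 to 5.59 ± 0.71 CPM (adjusted p = 0.0041), while Hes5, of the same family, fell by 1.21 ± 0.26 (SE, adjusted p = 0.0085).

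Of 20 tested genes of mature glia outside the set 3 rose and 1 fell, with a median of 0.13, and 16 were not called. These shares lie near or below the 10.7% higher and 12.6% lower among all genes tested. The fit without Yy1 cKO 3 gave 5 higher and 2 lower, with a median of 0.05. Dao, the D-amino acid oxidase of cerebellar astrocytes, rose from 13.4 ± 3.0 to 35.3 ± 3.7 CPM (adjusted p = 3.2e-04), Cldn10 by 0.61 ± 0.16 (SE, adjusted p = 0.020) and the potassium channel gene Kcnj16 by 0.41 ± 0.12 (SE, adjusted p = 0.032), and the glutamine transporter gene Slc38a3 fell by 0.36 ± 0.077 (SE, adjusted p = 0.0089). Over the whole wider list of 55 tested glial genes 9 rose and 13 fell, with a median of 0.04, and without Yy1 cKO 3 there were 15 higher and 18 lower. Reactive glia genes gave 0 higher and 3 lower of 12 tested by the edgeR test (1 and 3 at an unadjusted p under 0.05), with S1pr3, Serping1 and Vim the 3 that fell. Without Yy1 cKO 3 they gave 0 higher and 5 lower. For both lists the shares among all genes tested were 10.7% higher and 12.6% lower, or 14.9% and 15.6% without Yy1 cKO 3. These lists are not separate, since the wider list includes the young and mature genes counted above. Vim is on the young, wider and reactive lists, and its fall is counted in each. Gfap is on the wider and reactive lists. Gfap, the intermediate filament of reactive astrocytes, had 237 and 262 CPM among the controls, 92.9 and 100.2 CPM in Yy1 cKO 1 and 2 and 210.2 CPM in Yy1 cKO 3, and was not called with all libraries (adjusted p = 0.30) but fell without the third (adjusted p = 2.5e-10).

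Yy1 cKO 3 departed from the other mutants in the set more than those did from each other. Of the 33 genes 9 were higher by more than 0.5 on the log2 scale in Yy1 cKO 3 than in the mean of Yy1 cKO 1 and 2, and 2 were lower, against 5.25% and 4.14% of all genes tested. The 9 were Etnppl (1.27), Mt1 (1.22), Mt2 (1.21), Agt (1.16), Gjb6 (0.95), Glul (0.87), Apoe (0.59), Gja1 (0.56) and Fgfr3 (0.56), and the 2 were Tnc (-2.36) and Fabp7 (-0.87). Between Yy1 cKO 1 and 2, 0 of the 33 differed by that much in either direction, against 3.42% and 2.82% of all genes tested.

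Between the controls 1 of 33, Mt1, differed by more than 0.5 (-0.53 for control 1 minus control 2), against 4.15% higher and 4.04% lower among all genes tested. Control 1, the control with Y-linked transcripts, was the lower of the 2 for 21 of the 33 genes, and for 9 of the 9 that stood high in Yy1 cKO 3, the mutant that has those transcripts. For Tnc and Fabp7 control 1 was the higher. The share of all genes tested that were lower in control 1 was not counted. Some of these differences were small (-0.09 for Fgfr3). Only 1 library per group has the Y-linked transcripts, so sex cannot be told apart from other differences between these libraries. Of 13 tested genes on a list for glucocorticoid and STAT3 induction, 8 were higher in Yy1 cKO 3 by more than 0.5 and 0 lower. The shares of all genes tested were 5.25% and 4.14%. Fkbp5 was higher by 1.19, Fos by 1.10, Per1 by 0.85, Pdk4 by 0.84, Cebpd by 0.82, Zbtb16 by 0.81, Sgk1 by 0.75 and Cdkn1a by 0.58. Fos also differed between the controls, by -1.07 for control 1 minus control 2. Those not past 0.5 were Tsc22d3 (0.48), Junb (0.42), Ddit4 (0.24), Stat3 (0.14) and Il6st (0.07), and Socs3, of the glial set, was at 0.09. The summed level of the list was 486 and 534 CPM among the controls, 554 and 551 in Yy1 cKO 1 and 2 and 794 in Yy1 cKO 3. The part of these genes in the glial values of that library was not tested.

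**Figure D4:**
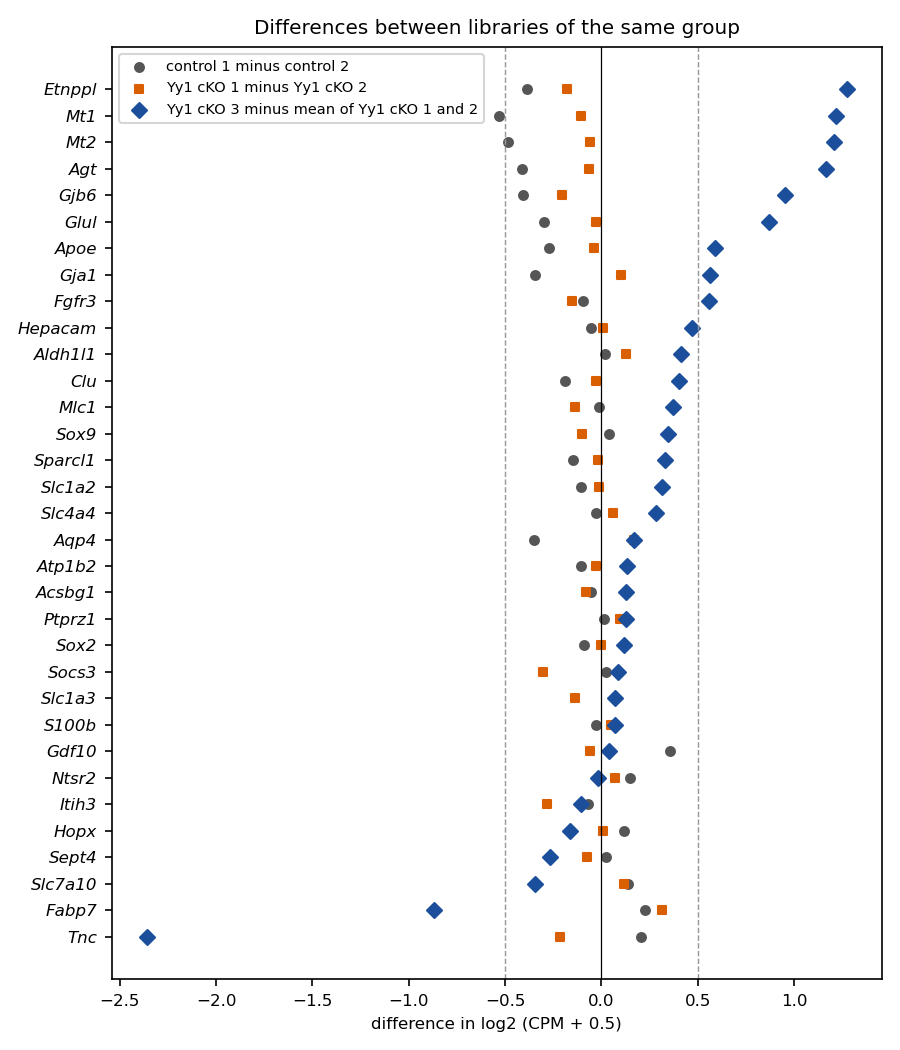
Differences in log2 (CPM + 0.5) between libraries of the same group for the 33 genes, ordered by the departure of Yy1 cKO 3 from the mean of Yy1 cKO 1 and 2 (blue diamonds). Dashed lines mark 0.5 in either direction, past which lie 11 of the diamonds, none of the orange squares and 1 grey circle (Mt1).

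Markers of several other cell types moved with the group, and their part in the glial values was not tested. Among all genes tested 10.7% rose and 12.6% fell. All 6 markers of dividing cells fell, with a summed level of 78.6 to 98.7 CPM among the controls against 4.30 to 6.29 CPM. All 5 markers of granule cell precursors fell too, with sums of 240 to 257 against 24.3 to 27.0 CPM. Atoh1, which defines them, was low in all libraries, with 16 and 19 counts in the controls against 0, 1 and 0 in the mutants. Of 8 markers of oligodendrocyte precursors, which also express Ptprz1, 6 fell and 0 rose, with sums of 299 to 315 CPM against 204 to 225 CPM.

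Microglia markers, beside which Apoe may be read, gave 0 called of 6 by the edgeR test (0 also at an unadjusted p under 0.05), with sums of 79.5 to 84.0 CPM among the controls, 70.2 and 71.8 CPM in Yy1 cKO 1 and 2 and 95.4 CPM in Yy1 cKO 3. Markers of mature oligodendrocytes, which also express S100b, Glul and Sept4, gave 2 higher and 1 lower of 8, with sums of 6683 to 6723 against 6422 to 7120 CPM. Purkinje cell markers, of the cells in which Cre is driven, gave 2 higher (Itpr1 and Gad1) and 0 lower of 6, with sums of 3405 to 3671 against 4371 to 5086 CPM. Itpr1 alone went from a mean of 1536 to 2586 CPM and makes up most of that difference. Calb1, Pcp2, Car8 and Ppp1r17 were not called, and their groups overlapped. Endothelial markers gave 1 higher (Flt1) and 3 lower (Cldn5, Kdr and Pecam1) of 6. Their sums were 141 and 154 CPM among the controls against 115 to 117 CPM among the mutants. Meningeal markers gave 0 higher and 2 lower of 6, with sums of 167 and 226 against 98.0 to 145 CPM. With so few markers per list, 1 or 2 calls in a direction say little beside the 10.7% higher and 12.6% lower among all genes tested. Markers of the choroid plexus, which expresses Clu, gave 1 higher (Ttr) and 1 lower (Otx2) of 5 tested, and the other 3 were not called. They summed to 21.1 and 21.4 against 12.7 to 20.2 CPM, but Otx2 makes up most of the control sums. It went from a mean of 15.6 to 8.73 CPM, while Ttr went from 0.27 to 0.81 CPM, so the sum gives no direction for the list. Markers of the ependyma summed to 9.15 to 9.89 against 12.2 to 12.3 CPM.

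**Figure D5:**
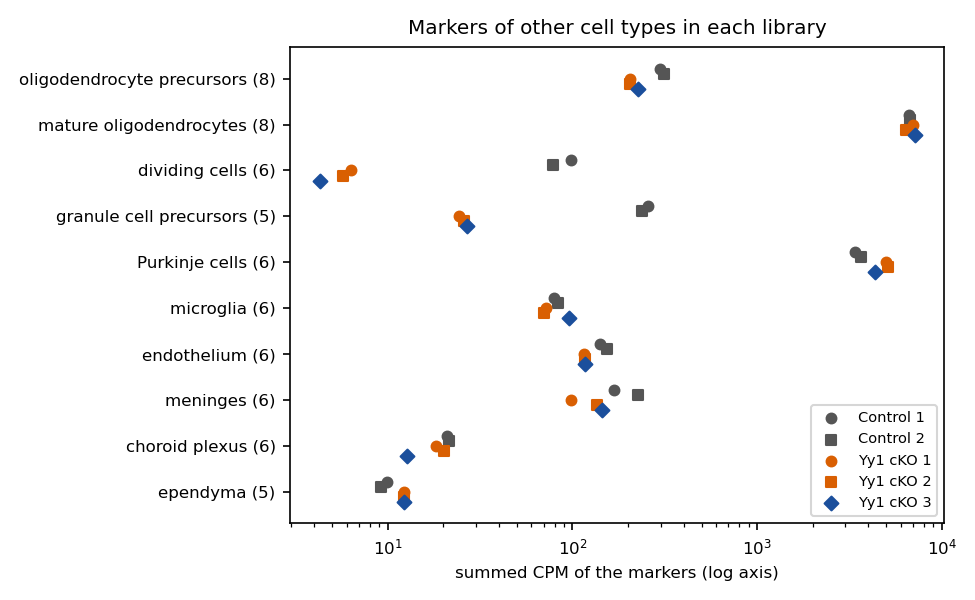
Summed CPM of the markers of 10 other cell types in each library, on a log axis, with the number of markers in brackets. Markers of dividing cells and of granule cell precursors are separated widely by group, those of oligodendrocyte precursors less so, and those of mature oligodendrocytes overlap.

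Levels per kb of exon ordered the set in the controls from Sparcl1 (298 CPM per kb), Apoe (244) and Atp1b2 (146) down to Socs3 (3.56), Etnppl (0.42) and Npy2r (0.097). In Yy1 cKO the top 3 by mean were Sparcl1 (369.8 CPM per kb), Mt2 (318) and Apoe (302), and the place of Mt2 rests on Yy1 cKO 3. Fabp7 stood at 101 CPM per kb in the controls, between Mt2 (117) and Slc1a3 (99.9), and at 26.8 CPM per kb among the mutants. Exon lengths are those of all annotated transcripts joined, so levels of genes with long alternative exons are underestimated.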

How the data were processed

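The authors deposited raw read counts per gene and a normalized signal that equals the raw count divided by 1 constant per library (0.969 to 1.07). The build was GRCm38 and the aligner STAR 2.7.1a, per the submitters' processing notes. Those also list featureCounts, Trimmomatic 0.39, DESeq2 1.26.0 and FastQC 0.11.8, without their settings. Per the labels, rRNA was depleted and libraries were strand-specific. Symbols, positions and exon lengths came from GENCODE M21 (GRCm38), which held 54673 of 55421 identifiers with their version and 567 without it.

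Counts were tested with the edgeR 4.0.16 quasi-likelihood test (R 4.3.3, TMM scaling, filterByExpr, robust dispersion, no covariate), with Benjamini-Hochberg adjustment over the 20388 genes kept, at 0.05. CPM are TMM-scaled, SE come from the F statistic, and differences between libraries use log2 (CPM + 0.5). The test was checked on simulated counts. Alternatives, 13 in all, were RLE scaling, library totals, 2 other filters, DESeq2 1.42.0, limma-trend 3.58.1 on log2 of the normalized signal plus 1, Xist as a covariate, the replicate number as a block and leaving out each library. The named genes were the 34 genes of the set and up to 4 called genes with the smallest p of other lists. Hes1, Hes5, Gfap, Fkbp5, Per1 and Sgk1 were chosen after their values were seen. The other tested genes on the list for glucocorticoid and STAT3 induction are named beside them. The set and the lists were chosen with earlier results of these data known.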

Additional observations from a re-analysis of the deposited data

How the results depend on the processing

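The 5 calls of S100b, Atp1b2, Itih3, Ntsr2 and Socs3 held in all 13 alternatives, the other 8 were lost in 1 to 6, and 15 of the 20 genes not called were called in at least 1; no called gene changed sign. Library totals alone moved the median of all genes by -0.08 and the share of calls that were higher from 45.9% to 29.8% (1432 higher), with 6 glial genes of the set lower. With no filter 5 of the set were lower, and DESeq2 called 16 higher. Leaving out 1 library gave 887 to 2990 genes higher and 1267 to 3127 lower among all genes, 5 to 15 higher and 2 to 5 lower in the set, and 3 to 15 higher and 6 to 18 lower in the wider glial list. A fit with 1 control takes the spread of the mutants for both groups. The medians of the young and mature classes kept their signs in all 13.

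The replicate numbers are not said to mark litters. Deviations of same-numbered libraries from their group means correlated by 0.037 and 0.013. With 2 controls the control deviations mirror each other, so these values cannot decide whether samples were paired. With the replicate block, which compares replicates 1 and 2 and in effect sets Yy1 cKO 3 aside, 3486 genes were higher, 18 of the set were higher and 6 lower, and 19 of the wider list were higher. With 2 controls, a call depends on a spread between few libraries, and Npy2r, with 2 to 6 counts, was left out by the filter on low counts.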
